A study of Macaca mulatta with 136 samples.

Results

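The integrin and laminin subunit genes were followed in adult rhesus macaque eyes. They were taken as every gene whose symbol in the deposited values named an integrin alpha chain (ITGA), an integrin beta chain (ITGB1 to ITGB8) or a laminin alpha, beta or gamma chain (LAMA, LAMB, LAMC). This gave 37 of 19422 genes: 17 integrin alpha, 8 integrin beta, 5 laminin alpha, 4 laminin beta and 3 laminin gamma genes. ITGAD, a leukocyte integrin gene, was not analysed here.

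Integrins are receptors of the cell surface built from an alpha and a beta chain, and the pairing of the chains sets which matrix protein or cell-surface protein is bound. Laminins are cross-shaped trimers of an alpha, a beta and a gamma chain that form the sheet of basement membranes, where integrins of the laminin-binding class hold cells in place. In the back of the eye, basement membranes lie at the inner limiting membrane, along retinal vessels and in Bruch's membrane, on which the retinal pigment epithelium (RPE) rests above the choriocapillaris. The integrin of alpha v and beta 5 on the apical face of the RPE takes part in the uptake of shed photoreceptor outer segments.

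The tissue came from the left (OS) and the right (OD) eye of 2 adult monkeys, RM03 and RM04, taken after death; the labels name no treatment or genotype. Punches with a diameter of 2 mm were taken at the fovea/macula, the perimacula, a nasal location and the temporal periphery and divided by dissection into the neural retina and a sample of RPE with the vascular, pigmented choroid beneath it. The 32 poly-A RNA-seq libraries cover 2 tissues and 4 locations with 4 eyes each. The 4 eyes of 2 animals served as replicates. With the monkey as covariate, p-values measure the spread between eyes left after a constant difference between the animals is removed. They do not measure the full spread between animals. Each library held between 42448891 and 78574034 estimated counts, and levels are given as CPM, the count scaled to a library total that edgeR normalized (TMM). A gene was called different at a Benjamini-Hochberg adjusted p under 0.05 from edgeR's quasi-likelihood test over all genes tested, with the monkey as covariate. Log2 fold changes are given with their standard error (SE).

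The tissue labels held against their markers. Summed rod markers reached 4013 to 28040 CPM in retina and 50.1 to 924 CPM in RPE/choroid, while summed RPE markers (5 of the 6 listed) reached 2280 to 18166 CPM in RPE/choroid and 128 to 1197 CPM in retina. Some RPE/choroid libraries stood apart. Summed Schwann cell markers, genes of myelinating peripheral nerve, were at 207 to 346 CPM in 10 of the 16 RPE/choroid libraries but reached 9414 and 2535 CPM at the perimacula of RM03 OD and RM04 OS and 5261, 15067, 644 and 1213 CPM at the periphery of RM03 OD, RM03 OS, RM04 OD and RM04 OS. The libraries of perimacula RM03 OD and periphery RM03 OS also held the lowest RPE marker sums, 3679 and 2280 CPM, and results that rest on RPE/choroid were repeated without them. The periphery libraries came from a flow cell of their own, so that periphery and flow cell cannot be told apart, while fovea, perimacula and nasal libraries shared flow cells. In bulk tissue, fewer cells of a type and less RNA per cell cannot be told apart either.

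The first comparison asked in which tissue each chain was more abundant. Most of the genes were more abundant in RPE/choroid: averaged over the 4 locations, 28 of the 37 genes were higher in RPE/choroid, against 43.6% of all genes tested, and 5 were higher in retina, against 43.9%. The median log2 fold change of the 37 genes was 1.98, and that of all genes was -0.01. Most genes tested differed between the tissues, so the size of the differences was counted as well. A log2 fold change over 2, which is a fold of 4, was reached by 18 of the 37 genes toward RPE/choroid (18% of all genes) and by 0 toward retina (11.6% of all genes). At each of the 4 locations taken alone, 23 genes were higher in RPE/choroid (29.1% of all genes) and 2, ITGA2B and LAMB4, were higher in retina (26.8%). For 22 genes all 16 RPE/choroid libraries lay above all 16 retina libraries (19.2% of all genes), and for LAMB4 alone the order was the opposite (15.8%).

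**Figure D1:**
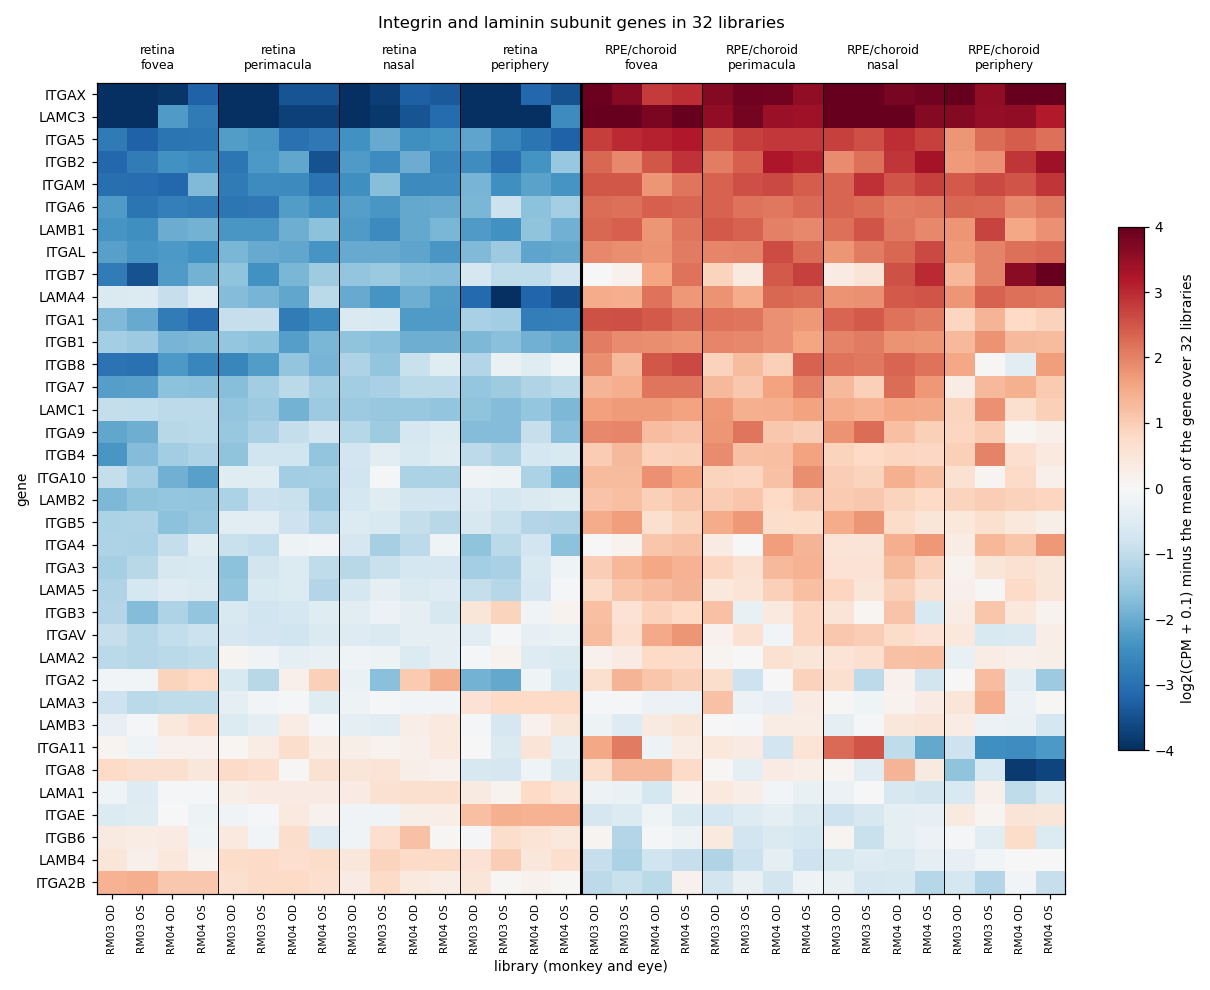
Level of 36 of the 37 genes in each library, as log2(CPM + 0.1) minus the gene's mean over the 32 libraries (red, above the mean; blue, below), with genes ordered by their tissue difference and libraries grouped by tissue and location, each column being 1 eye. Colours saturate at a difference of 4. ITGAX and LAMC3 show the strongest contrast between the tissues (log2 fold changes 7.71 and 7.68), and LAMA4 and ITGB8 in retina and ITGA8 and ITGA11 in RPE/choroid also differ by location.

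The integrins of leukocytes showed large differences. ITGAX, the alpha chain of an integrin of dendritic cells and macrophages, had a lowest, median and highest level of 0.487, 1.1 and 1.84 CPM in the 16 retina libraries and of 118, 246 and 392 CPM in the 16 RPE/choroid libraries. This is a log2 fold change of 7.71 (SE 0.18, adjusted p = 6.87e-24, 4 of 4 eyes), the largest of the 37, and the lowest RPE/choroid library was above the highest retina library. ITGB2, the beta chain that leukocyte alpha chains share, was at 1.27, 2.63 and 5.21 CPM in retina and 50.1, 83.2 and 160 CPM in RPE/choroid (log2 fold change 5.08, SE 0.16). ITGAM, its partner on monocytes and microglia, was at 1.84, 2.94 and 5.22 CPM in retina and 58.6, 97.8 and 130 CPM in RPE/choroid (4.98, SE 0.14). ITGAL, the lymphocyte partner of ITGB2, and ITGB7, the beta chain of gut-homing lymphocyte integrins, differed by 4.23 and 4.0. All 7 leukocyte markers were also higher in RPE/choroid, and their sum was 665 to 1606 CPM there and 20.3 to 45.9 CPM in retina. The part of leukocyte content in these differences was not tested. ITGAX and ITGAM belong to a cluster of related neighbouring genes, so that the split of reads among them is uncertain.

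ITGAE was the exception among the leukocyte chains. It encodes the alpha chain that pairs with beta 7 on resident lymphocytes, and it was higher in retina, with 4.39, 6.88 and 17.8 CPM there and 3.6, 4.8 and 9.28 CPM in RPE/choroid (log2 fold change -0.61, SE 0.05, adjusted p = 4.27e-11, 4 of 4 eyes). The ranges of the tissues overlapped. RefSeq places P2RX5 over ITGAE, and reads of overlapping genes may not be told apart.

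Among the chains of the laminin trimer, gamma 3 differed most between the tissues. LAMC3 was at 0.219, 0.486 and 1.8 CPM in retina and 81.3, 120 and 196 CPM in RPE/choroid, a log2 fold change of 7.68 (SE 0.25, adjusted p = 6.03e-21). LAMB1 (beta 1) was higher in RPE/choroid by 4.25 (SE 0.13) and LAMA4 (alpha 4, the laminin alpha chain of vessels and mesenchyme) by 3.96 (SE 0.11). LAMC1, the gamma chain found in most laminin trimers, was at 10.5, 13.7 and 20.4 CPM in retina and 61.3, 113 and 139 CPM in RPE/choroid, a log2 fold change of 2.91 (SE 0.08). LAMB2 differed by 1.98, LAMA5 by 1.48, LAMA2 by 0.91 and LAMA3 by 0.37. The small difference of LAMA3 was not called without the libraries of RM03 OD (0.26, adjusted p = 0.11), of RM04 OS (0.33, adjusted p = 0.0828) or of the pair rich in nerve markers (0.16, adjusted p = 0.058).

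LAMA1 and LAMB4 went the other way. LAMB4 was at 15, 22.1 and 27.1 CPM in retina and 5.71, 9.02 and 14 CPM in RPE/choroid, with no overlap of the tissues (log2 fold change -1.22, SE 0.07, adjusted p = 2.47e-15). LAMA1, the laminin alpha chain of the inner limiting membrane, was at 9.73, 17.4 and 24.2 CPM in retina and 6.75, 11.7 and 18.2 CPM in RPE/choroid (-0.54, SE 0.11, adjusted p = 3.62e-05). A fit with a monkey effect of its own in each tissue gave the tissue difference of RM03 alone. For LAMA1 that difference was -0.21 and not called (adjusted p = 0.0998), a value in which the difference of RM04 has no part. LAMB3, the epithelial beta 3 chain, did not pass the test (0.05, SE 0.13).

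The chains that pair most widely were also higher in RPE/choroid. ITGB1, the partner of most alpha chains shared by receptors for collagen, laminin and fibronectin, was at 31.9, 42.3 and 56.8 CPM in retina and 347, 511 and 617 CPM in RPE/choroid, a log2 fold change of 3.53 (SE 0.05) with the lowest adjusted p of the 37 (5e-29). ITGA5, the fibronectin receptor chain, was at 2.31, 3.32 and 5.47 CPM in retina and 76.3, 148 and 205 CPM in RPE/choroid (5.33, SE 0.11, adjusted p = 4.13e-25). ITGAV, the alpha v chain of vitronectin receptors, differed less: 47.2, 69.3 and 97.5 CPM in retina against 68.3, 162 and 351 CPM in RPE/choroid, a log2 fold change of 1.25 (SE 0.11), and its ranges overlapped.

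The remaining integrins followed the same direction in most roles. Of the laminin-binding alpha chains, ITGA6, ITGA7 and ITGA3 were all higher in RPE/choroid, by 4.42, 2.96 and 1.81. Of the collagen-binding alpha chains, ITGA1 (3.90) and ITGA10 (2.14) were higher, whereas ITGA2 (0.61, SE 0.35) and ITGA11 (-0.09, SE 0.31) did not pass the test. ITGA9 and ITGA4 were higher by 2.62 and 1.88. The beta chains ITGB8, ITGB4, ITGB5 and ITGB3 were higher by 3.29, 2.19, 1.96 and 1.27. ITGA8 (-0.32, SE 0.22) did not pass. ITGA2B, the platelet chain, and ITGB6, an epithelial chain, were higher in retina (-1.31 and -0.98), the latter at 0 to 0.407 CPM in any library. Besides ITGAE, RefSeq overlaps another protein-coding gene with ITGA1 (PELO), ITGA4 (CERKL), ITGA7 (TMT1B), ITGAM (TRIM72), ITGB2 (SLX9), LAMB1 (DLD), LAMB3 (HSD11B1 and G0S2) and, as uncharacterized genes, with ITGA10, ITGB3 and ITGB8, 11 of the 37 genes in all. Whether counting used the strand is not given in the sources used here, so their levels are less certain.

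Some tissue differences varied with the location. That of LAMA4 was 2.35 at the fovea, 3.61 at the perimacula, 4.30 at nasal and 5.56 at the periphery, and that of ITGB8 went from 4.86 at the fovea over 3.55 and 3.25 to 1.5 at the periphery, all called. ITGAV differed by 2.33 at the fovea and was not called at the periphery (0.22, adjusted p = 0.349). ITGAE was not called at the fovea (-0.18, adjusted p = 0.142) and was lower in RPE/choroid by a log2 fold change of -1.02 at the periphery.

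**Figure D2:**
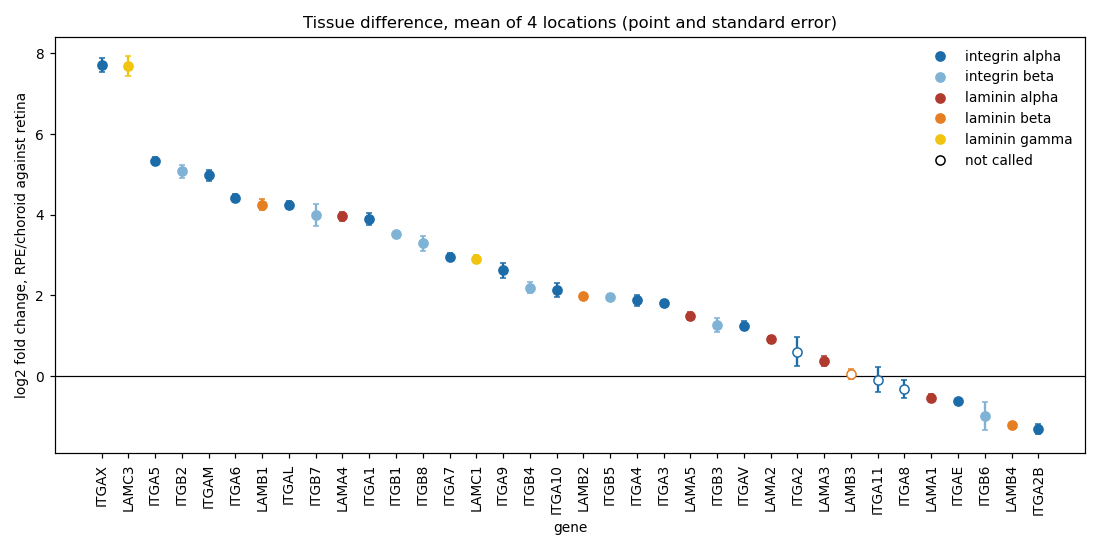
Log2 fold change between RPE/choroid and retina (mean of 4 locations) with its standard error for 36 genes, coloured by chain class, with open points for genes not called. ITGAX and LAMC3 stand at 7.71 and 7.68, apart from ITGA5 at 5.33, and the values below 0 reach -1.31 at ITGA2B.

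The second comparison asked how the chains change from the center to the edge of the retina. Between fovea and periphery of the retina, 6 of the 37 genes were higher at the fovea (31% of all genes) and 17 were lower (36%). Against the nasal location, 4 were higher at the fovea (25.1% of all genes) and 17 lower (27.2%), and against the perimacula, 3 were higher (19%) and 12 lower (16.2%). These comparisons share the fovea libraries. The median log2 fold change of the 37 genes between fovea and periphery was -0.38, beside -0.06 over all genes.

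LAMA4 had the steepest change toward the fovea. Its level in RM03 OD, RM03 OS, RM04 OD and RM04 OS was 49.3, 50.3, 38.4 and 50.4 CPM at the fovea, 21.9, 20.2, 17.4 and 34.8 CPM in the perimacula, 18, 14.2, 19 and 15.5 CPM at the nasal location, and 8.38, 4.44, 8.01 and 6.39 CPM at the periphery. All fovea libraries were above all others and all periphery libraries were below all others, while perimacula and nasal overlapped. The log2 fold change of fovea against periphery was 2.85 (SE 0.25, adjusted p = 1.05e-06, 7.21-fold), against nasal 1.54 (SE 0.22, adjusted p = 3.08e-05) and against perimacula 1.06 (SE 0.23, adjusted p = 0.00425).

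The summed ganglion cell markers followed the same order of locations. They were at 7427 to 8442 CPM at the fovea, 2104 to 4558 CPM in the perimacula, 1477 to 1719 CPM at the nasal location and 361 to 776 CPM at the periphery, and all 6 markers were higher at the fovea than at the periphery. Within the periphery, the eyes ordered RM03 OS, RM04 OS, RM04 OD and RM03 OD by marker sum (361, 492, 679 and 776 CPM) and had LAMA4 levels of 4.44, 6.39, 8.01 and 8.38 CPM. Within the perimacula the eyes had the same order by both measures, from RM04 OD to RM04 OS. At nasal, RM04 OS had the lowest marker sum (1477 CPM) but RM03 OS the lowest LAMA4, and at the fovea RM03 OS had the highest sum (8442 CPM) but RM04 OS the highest LAMA4. The part of ganglion cell content in the LAMA4 difference was not tested.

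**Figure D3:**
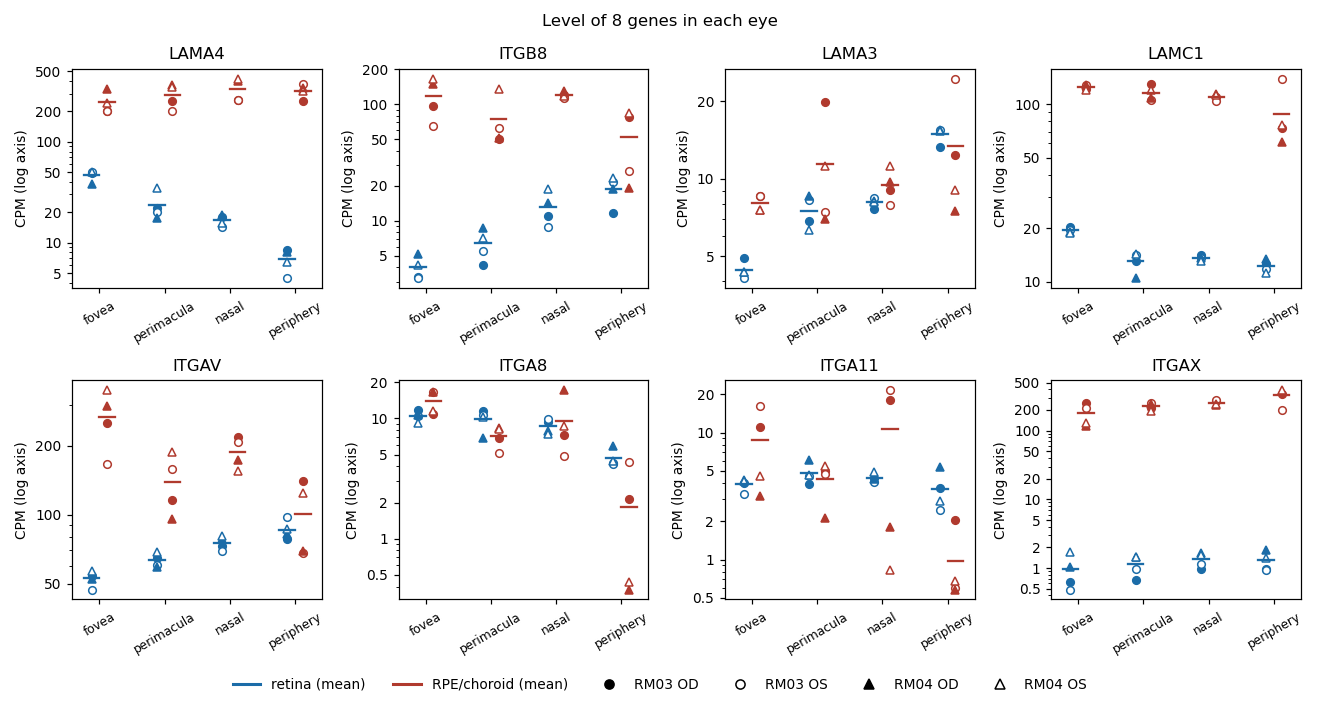
Level in CPM (log axis) of 8 genes in each eye at 4 locations, in retina (blue) and RPE/choroid (red), with circles for RM03, triangles for RM04, filled symbols for OD and open symbols for OS, and a line at the mean of 4 eyes. LAMA4 falls in retina from 47.1 to 6.8 CPM on average from fovea to periphery while its RPE/choroid means stay between 245 and 335 CPM, and ITGB8 rises in retina and is lowest at the periphery in RPE/choroid.

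LAMC1 was the other laminin chain higher at the fovea. It was at 20.4, 19.7, 19 and 18.9 CPM there, in the same order of eyes, and at 12.7, 11.8, 13.5 and 11.2 CPM at the periphery (log2 fold change 0.72, SE 0.11, adjusted p = 9.31e-05). The groups did not overlap, and the fovea was also above nasal (0.55, adjusted p = 0.000175) and perimacula (0.64, adjusted p = 0.00108).

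Among integrins, ITGA8, a chain that binds nephronectin and other RGD proteins, was at 11.8, 10.4, 10.6 and 9.22 CPM at the fovea and 4.23, 4.15, 5.9 and 4.41 CPM at the periphery (1.22, SE 0.17, adjusted p = 6.27e-05). Its differences to nasal (0.32, adjusted p = 0.0952) and perimacula (0.15, adjusted p = 0.523) did not pass, so that only the difference to the periphery, which has its own flow cell, was called. ITGA2B was at 7.4, 7.64, 5.96 and 5.88 CPM at the fovea and 3.87, 2.87, 3.12 and 2.83 CPM at the periphery (1.13, SE 0.13, adjusted p = 7.9e-06), and it was also called against nasal (0.85) and perimacula (0.59). ITGB1 differed by 0.29 (SE 0.09, adjusted p = 0.0127), from a mean of 48.1 ± 8.09 CPM (SD, n = 4) at the fovea to 40.5 ± 4.51 CPM at the periphery, with overlapping groups, and was not called without RM03 OD (0.25, adjusted p = 0.0698). ITGA2, a collagen receptor chain at 0.102 to 1.47 CPM in these libraries, differed by 1.94 (SE 0.30).

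ITGB8 rose from the fovea to the periphery of the retina. This beta chain, which pairs with alpha v and binds latent TGF-beta, was at 3.3, 3.22, 5.22 and 4.18 CPM at the fovea, 4.19, 5.53, 8.67 and 7.19 CPM in the perimacula, 11.1, 8.8, 14.2 and 18.7 CPM at the nasal location and 11.7, 21.7, 18.7 and 23.5 CPM at the periphery. The fovea did not overlap with nasal or periphery, and its log2 fold change was -2.21 against periphery (SE 0.20, adjusted p = 1.37e-06, 4.63-fold), -1.67 against nasal (SE 0.19, adjusted p = 3.95e-06) and -0.61 against perimacula (adjusted p = 0.0281). Its partner ITGAV was at 54.1, 47.2, 52.5 and 57.1 CPM at the fovea and 78.2, 97.5, 82.3 and 86.5 CPM at the periphery, without overlap (-0.66, SE 0.09, adjusted p = 5.46e-05), and was also lower than at nasal (-0.48, adjusted p = 5.81e-05). Against perimacula ITGAV did not pass (-0.21, adjusted p = 0.0958). ITGB5, the alpha v partner of phagocytosis, changed by -0.38, -0.58 and -0.65 against periphery, nasal and perimacula, all called.

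Laminin chains LAMA3 and LAMB2 fell at the fovea as well. LAMA3, the alpha chain of epithelial laminin, was at 4.92, 4.11, 4.36 and 4.36 CPM at the fovea, 6.85, 8.26, 8.58 and 6.32 CPM in the perimacula, 7.62, 8.39, 8.22 and 8.16 CPM at nasal and 13.3, 15.4, 15.5 and 15.3 CPM at the periphery. Fovea lay below and periphery above every other retina library, with a log2 fold change between them of -1.69 (SE 0.12, adjusted p = 2.85e-07). LAMB2, the beta 2 chain of synaptic and retinal laminins, went from 91.5, 105, 108 and 107 CPM at the fovea to 224, 194, 214 and 227 CPM at the periphery (-1.01, SE 0.12, adjusted p = 1.38e-05), and was called against nasal (-0.92) and perimacula (-0.48). LAMA2 and LAMA1 were lower at the fovea than at the periphery (-0.78 and -0.63) and were called in each retina comparison.

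ITGAE and ITGA6 completed the named genes that fell at the fovea. ITGAE was at 4.39, 4.68, 6.42 and 5.6 CPM at the fovea and 15.3, 17.8, 17.3 and 17.3 CPM at the periphery (-1.65, SE 0.11, adjusted p = 2.1e-07), whereas its differences to nasal (-0.34) and perimacula (-0.37), although called, were smaller, and that to nasal was not called without RM03 OD (-0.27, adjusted p = 0.103) or RM04 OS (-0.30, adjusted p = 0.069). ITGA6, a laminin receptor chain, was at 9.27, 5.87, 6.57 and 6.4 CPM at the fovea and 12.6, 24.4, 14.2 and 17.5 CPM at the periphery (-1.24, SE 0.24, adjusted p = 0.00056), and did not pass against nasal (-0.48, adjusted p = 0.0683). ITGB7 (-2.39) and ITGB3 (-1.98) had large fold changes at low levels, 0 to 0.59 CPM and 0.278 to 2.21 CPM over fovea and periphery. ITGA10 (-0.73), ITGB4 (-0.69), ITGA7 (-0.56), ITGAL (-0.44) and LAMB4 (-0.32) were lower at the fovea, the last not called without RM03 OS (-0.18, adjusted p = 0.176) or RM04 OS (-0.26, adjusted p = 0.122). ITGAL lost its call with either eye of RM03 left out, and ITGB4 with either OD eye left out.

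The genes not called between fovea and periphery of the retina were ITGA1 (-0.32), ITGA3 (-0.02), ITGA4 (0.33), ITGA5 (-0.19), ITGA9 (SE 0.18), ITGA11 (0.19), ITGAM (-0.41), ITGAX (-0.42), ITGB2 (-0.40), ITGB6 (-0.28), LAMA5 (SE 0.22), LAMB1 (-0.08), LAMB3 (0.24) and LAMC3 (0.50), with log2 fold changes in parentheses except for ITGA9 and LAMA5, whose changes rounded to 0. Of them ITGA1 (-1.0), ITGA5 (-0.62) and ITGA9 (-0.60) were lower at the fovea than at the nasal location, ITGA5 not without RM03 OS (-0.44, adjusted p = 0.112). Without the monkey as covariate, ITGA1 was not called against nasal (-1.13, adjusted p = 0.133).

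Markers of other cells moved with these genes. All 9 rod markers and all 5 Müller glia markers were lower at the fovea than at the periphery, with marker sums of 4013 to 4610 and 1507 to 1649 CPM at the fovea and 23891 to 28040 and 4015 to 5833 CPM at the periphery. Summed RPE markers in the retina libraries were 140 to 226 CPM at the fovea and 547 to 1197 CPM at the periphery, 4 of 5 markers being called, and melanocyte markers were at 21.8 to 28.2 and 115 to 190 CPM. Their part in the rise of ITGB8, ITGAV, LAMA3, LAMB2 and ITGAE was not tested.

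**Figure D4:**
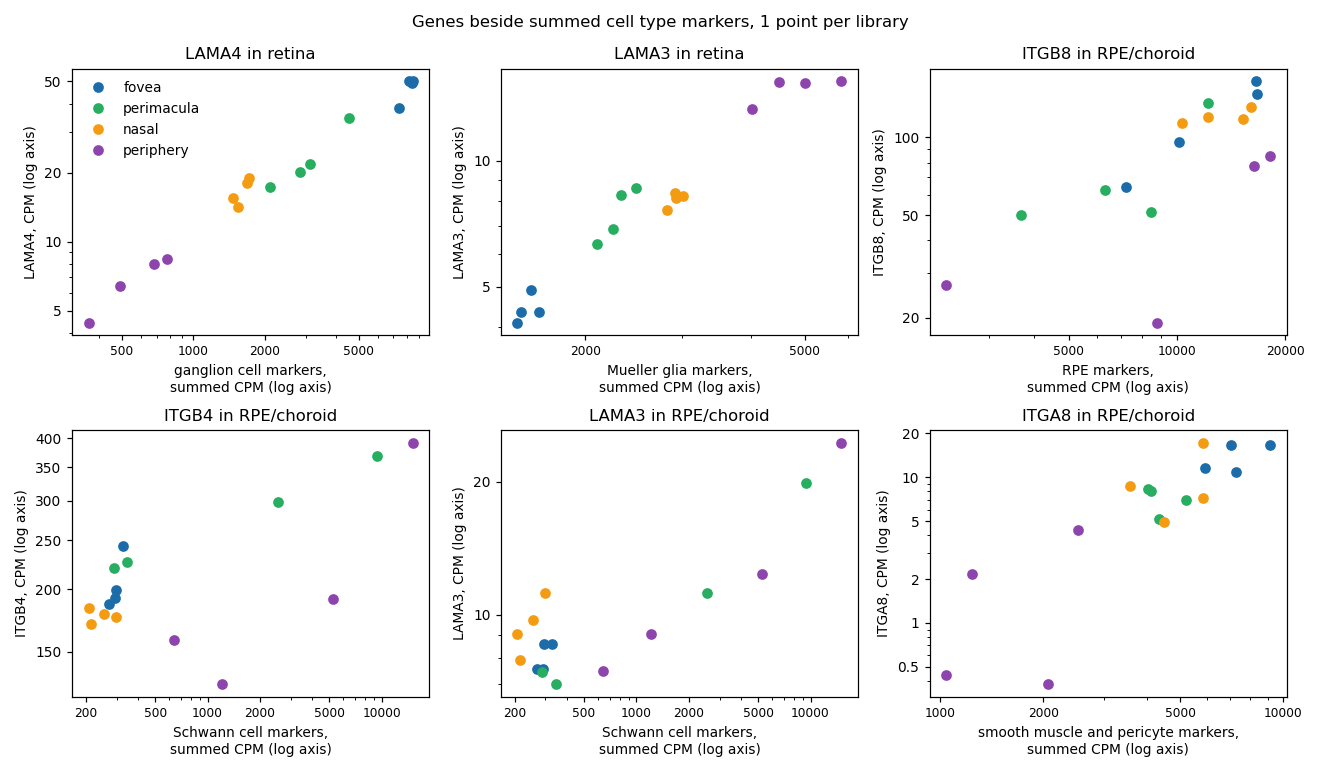
Level of a gene (CPM, log axis) beside the summed markers of a cell type (CPM, log axis), 1 point per library, coloured by location, 16 libraries per panel. LAMA4 in retina rises from 4.44 to 50.4 CPM along the ganglion cell markers, and in RPE/choroid the libraries with the highest Schwann cell sums, 15067 and 9414 CPM, hold the highest ITGB4 (392 and 368 CPM) and LAMA3 (24.5 and 19.9 CPM).

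The third comparison asked the same of RPE/choroid. Here more genes were higher at the fovea than lower: 15 of the 37 genes were higher at the fovea than at the periphery (21.2% of all genes) and 5 were lower (22.9%). The median log2 fold change was 0.38 over the 36 genes tested, since ITGB6 was below the filter, and -0.06 over all genes. Against the perimacula and the nasal location 0 of the 37 genes were called by edgeR, where 0.0447% and 0.361% of all genes were. At an unadjusted p under 0.05 there were 8 and 12 of the 37 genes, beside 1678 of 15674 and 2449 of 15789 over all genes. DESeq2 called 2 of the 37 at each, beside 314 and 475 over all genes. The RPE/choroid calls described next are therefore against the periphery, whose flow cell was separate. With only the compared locations in the fit, edgeR called 3 genes (ITGA1, ITGA8 and LAMC3) higher at the fovea than in the perimacula and 1 (LAMA2) lower at the fovea than at nasal. Over all genes, these fits called 357 of 15215 against perimacula and 346 of 15115 against nasal. The fits with more locations called 7 and 57.

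ITGA8 and ITGA11 had the largest changes. ITGA8 was at 10.9, 16.6, 16.6 and 11.5 CPM at the fovea, 6.94, 5.2, 8.35 and 8.1 CPM in the perimacula, 7.25, 4.9, 17.3 and 8.69 CPM at nasal and 2.15, 4.31, 0.378 and 0.437 CPM at the periphery. Fovea and periphery did not overlap, and their log2 fold change was 3.20 (SE 0.65, adjusted p = 0.00245). ITGA11, a collagen receptor chain of fibroblasts, was at 11, 16.1, 3.19 and 4.59 CPM at the fovea and 2.05, 0.595, 0.582 and 0.684 CPM at the periphery (3.02, SE 0.47, adjusted p = 0.000446). At nasal it was at 18.2 and 21.7 CPM in RM03 and at 1.8 and 0.824 CPM in RM04, so that the animals differed widely there.

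ITGA1, a collagen receptor chain of smooth muscle and vessels, was at 40.9, 41.4, 38.7 and 33.3 CPM at the fovea and 12.7, 18, 12.1 and 13.3 CPM at the periphery (1.45, SE 0.11, adjusted p = 4.61e-06). ITGA10, another collagen receptor chain, was at 19.8, 19.7, 29.5 and 24.8 CPM at the fovea and 12.6, 8.82, 13.9 and 9.49 CPM at the periphery (1.03, SE 0.20, adjusted p = 0.00174). Neither overlapped. The summed smooth muscle and pericyte markers were at 5904 to 9162 CPM at the fovea and 1042 to 2523 CPM at the periphery, with 5 of 6 markers called higher at the fovea, and endothelial markers at 1465 to 2109 and 820 to 1152 CPM, with 5 of 6 called. The summed fibroblast markers were at 2883 to 3758 CPM at the fovea and 4992 to 10022 CPM at the periphery, with 4 of 6 (DCN, LUM, COL1A2 and COL3A1) called lower at the fovea. DCN, at 1328 and 5343 CPM on average, made up most of that difference, while PDGFRA (0.07) and COL1A1 (0.11) were not called. Their part in the integrin differences was not tested.

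ITGAV was at 251, 166, 297 and 351 CPM at the fovea, 116, 158, 96.1 and 188 CPM in the perimacula, 218, 207, 174 and 156 CPM at nasal and 140, 68.3, 69.3 and 125 CPM at the periphery. The fovea was above the periphery in every eye without overlap (1.37, SE 0.32, adjusted p = 0.00507), which is the reverse of its direction in retina. ITGB5 was higher at the fovea by 0.72 (SE 0.15, adjusted p = 0.0027), with means of 366 ± 121 CPM (SD, n = 4) at the fovea and 210 ± 22.6 CPM at the periphery. ITGB8 was at 96.4, 64.5, 148 and 166 CPM at the fovea and 77.7, 26.9, 19.2 and 84.7 CPM at the periphery and was not called (1.08, SE 0.49, adjusted p = 0.0972), but passed with the eye as a block (1.32, adjusted p = 0.032). The RPE marker sums of the same libraries were 10100, 7212, 16688 and 16614 CPM at the fovea and 16325, 2280, 8769 and 18166 CPM at the periphery. The part of RPE content in these differences was not tested.

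The laminin chains changed less. LAMC3 and LAMA5 were higher at the fovea by 0.65 (SE 0.13) and 0.73 (SE 0.11). LAMC1 was at 122, 128, 128 and 120 CPM at the fovea and 72.9, 139, 61.3 and 76.3 CPM at the periphery, so that 1 eye went against the other 3 (0.53, SE 0.19, adjusted p = 0.0435). That eye, RM03 OS, held the highest Schwann cell sum, and without the pair rich in nerve markers the difference was 0.81 (adjusted p = 0.000223), while with the eye as a block its adjusted p was 0.0506, and it was not called without RM03 OD (0.50, adjusted p = 0.124), RM04 OD (0.36, adjusted p = 0.239) or RM04 OS (0.51, adjusted p = 0.168). LAMA2 differed by 0.38 (adjusted p = 0.0239) and lost its call with RM03 OD, RM04 OD or RM04 OS left out. LAMA4 was at 204, 202, 330 and 244 CPM at the fovea and 251, 374, 339 and 321 CPM at the periphery, overlapping, and its difference of -0.42 (SE 0.15, adjusted p = 0.0435) was lost with the eye as a block (adjusted p = 0.06), without the nerve-rich pair (-0.24, adjusted p = 0.12) and without RM03 OD, RM03 OS or RM04 OS (-0.44, -0.24 and -0.43). LAMB4 was at 7.17, 5.71, 7.93 and 7.17 CPM at the fovea and 11, 12.9, 14 and 14 CPM at the periphery (-0.90, SE 0.14, adjusted p = 0.000525).

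The leukocyte chains that changed were lower at the fovea. ITGB7 was at 1.02, 1.14, 3.24 and 4.96 CPM there and 2.7, 4.31, 13.5 and 17.7 CPM at the periphery. The groups overlapped across animals, but the periphery was higher in each eye (-1.83, SE 0.21, adjusted p = 7.47e-05). Without the monkey as covariate ITGB7 was not called (-1.89, adjusted p = 0.0745). ITGAX was at 255, 212, 118 and 130 CPM at the fovea and 340, 199, 373 and 392 CPM at the periphery (-0.91, SE 0.27, adjusted p = 0.0182, 3 of 4 eyes), and was not called without RM04 OD (-0.68, adjusted p = 0.127) or RM04 OS (-0.67, adjusted p = 0.153). ITGAE was at 4.03, 4.48, 5.75 and 4.31 CPM at the fovea and 8.31, 7.03, 9.28 and 9.08 CPM at the periphery (-0.87, SE 0.14, adjusted p = 0.000606). Leukocyte marker sums overlapped between the locations, at 665 to 1373 CPM and 827 to 1066 CPM, but 3 of the 7 markers were called lower at the fovea, PTPRC (-0.66), TYROBP (-0.63) and AIF1 (-1.23), and 1, CSF1R (0.50), higher, with a median of -0.53. AIF1, a marker of macrophages and microglia, was at 28.4 ± 9.15 CPM (SD, n = 4) at the fovea and 64 ± 8.48 CPM at the periphery. The part of leukocyte content in these integrin differences was not tested.

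Further genes higher at the fovea of RPE/choroid were ITGA9 (1.02), ITGA3 (0.88), ITGA5 (0.84), ITGA7 (0.70) and ITGB1 (0.47), the last from 606, 537, 531 and 504 CPM at the fovea to 362, 506, 360 and 347 CPM at the periphery. ITGA7 lost its call with either eye of RM04 left out. Among the genes not called were ITGA2 (1.07), ITGA2B (0.04), ITGA4 (-0.62), ITGA6 (0.13), ITGAL (-0.14), ITGAM (-0.40), ITGB2 (-0.05), ITGB3 (0.38), ITGB4 (-0.02), ITGB8, LAMA1 (0.24), LAMA3 (-0.63), LAMB1 (0.14), LAMB2 (0.18) and LAMB3 (0.25). ITGB4, the hemidesmosome chain, and LAMA3 were highest in the pair of libraries rich in nerve markers, periphery RM03 OS and perimacula RM03 OD. ITGB4 was lowest of all RPE/choroid libraries at the periphery of RM04 OS and RM04 OD, where the Schwann cell sums were 1213 and 644 CPM. The part of nerve content in these levels was not tested. ITGB4 was at 191, 392, 158 and 129 CPM at the periphery and 368, 220, 226 and 299 CPM in the perimacula, and LAMA3 at 12.4, 24.5, 7.49 and 9.06 CPM and 19.9, 7.43, 6.97 and 11.2 CPM, beside the Schwann cell sums given above. LAMB1 was highest at the periphery of RM03 OS too (388 CPM, with 174 to 209 CPM in the other 3 eyes). Without that library and perimacula RM03 OD, 21 of the genes were called between fovea and periphery: LAMA4 was lost, and ITGA2 and LAMB1 were gained.

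The last comparison asked whether the change from fovea to periphery differed between the tissues. It did for 22 of the 37 genes: the log2 fold change of fovea against periphery was more positive in retina than in RPE/choroid for 3 (19.1% of all genes) and more negative for 19 (24.5%). LAMA4 was 2.85 in retina and -0.42 in RPE/choroid, a difference of 3.22 (interaction term, SE 0.29, adjusted p = 3.78e-09). Large differences the other way were those of ITGB8 (-3.37, adjusted p = 6.16e-06), ITGA11 (-2.97, adjusted p = 0.00633, and 0.0549 without RM03 OS), ITGB3 (-2.42) and ITGAV (-2.11, adjusted p = 4.52e-06). Of the 12 genes called in both tissues, 6 moved alike and 6 moved oppositely, where of the 4720 genes called in both tissues among all genes 77.7% moved alike and 22.3% oppositely. ITGA8, ITGB1 and LAMC1 were higher at the fovea of both tissues, and ITGAE, ITGB7 and LAMB4 were lower in both. LAMA4 was higher at the fovea in retina and lower in RPE/choroid, and ITGAV, ITGB5, ITGA7, ITGA10 and LAMA2 were the reverse. Several of these calls were not stable. Leaving out single eyes ended those of LAMA4, LAMA2, ITGA7 and LAMC1 in RPE/choroid and of ITGB1 and LAMB4 in retina. Without the monkey as covariate, ITGA10 in retina (adjusted p = 0.115) and ITGB7 in RPE/choroid (adjusted p = 0.0745) were not called.

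**Figure D5:**
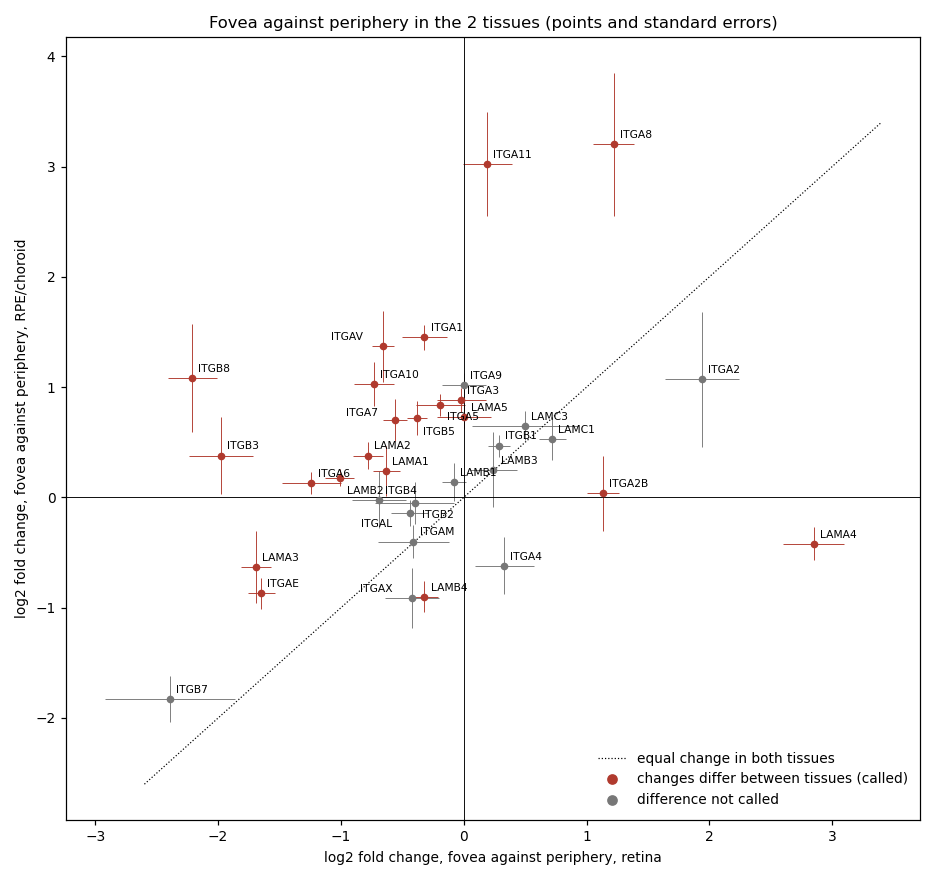
Log2 fold change of fovea against periphery in retina (horizontal) and RPE/choroid (vertical) with standard errors for 35 genes, red where the changes of the tissues differed by the interaction test, and a dotted line where both would be equal. LAMA4 lies alone at the right (2.85, -0.42), ITGB8 at the left (-2.21, 1.08), and ITGA8 and ITGA11 at the top (3.20 and 3.02 in RPE/choroid).

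Genes that work with these chains were read from 4 lists. Over all genes, 43.6% were higher and 43.9% lower in RPE/choroid than in retina, 31% were higher and 36% lower at the fovea than at the periphery of retina, and 21.2% and 22.9% in RPE/choroid. Of 26 tested integrin adaptor and adhesion signalling genes, 2 were lower and 23 higher in RPE/choroid than in retina, the latter including PARVG and FERMT3, adaptors of leukocytes (7.89 and 5.14). In RPE/choroid 17 were higher at the fovea than at the periphery and 1 lower, with VCL and ZYX, which link integrins to actin, higher by 1.07 and 1.08, whereas in retina 8 were higher and 7 lower, shares no larger than those over all genes. Of the 18 genes of basement membrane proteins other than laminin, 17 were higher in RPE/choroid, where NID1, which bridges laminin and collagen IV, differed by 6.56. In retina 13 of the 18 were lower at the fovea than at the periphery and 3 higher (median -1.01), while in RPE/choroid 8 were higher and 1 lower (median 0.28). FBLN1 (-5.73) and NID2 (-2.27) fell most in retina.

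Read against the same shares over all genes, of 15 other integrin ligands 10 were higher and 5 lower in RPE/choroid than in retina. VTN, vitronectin, which alpha v integrins bind, was lower in RPE/choroid (-6.16). In retina 9 were lower at the fovea than at the periphery and 4 higher. SPP1, osteopontin, went from 95.5 ± 6.12 CPM (SD, n = 4) at the fovea to 1149 ± 191 CPM at the periphery (-3.53), and MFGE8, a bridge between dying membranes and alpha v integrins, changed by -2.21. In RPE/choroid 6 were higher at the fovea and 0 lower, led by POSTN (5.12) and THBS1 (2.24). Of the 6 hemidesmosome and laminin receptor partners, 4 were higher in RPE/choroid and 2 in retina. At the fovea of RPE/choroid 5 of the 6 were higher and 0 lower, and at the fovea of retina 4 were higher and 1, the laminin receptor BCAM, lower, with COL17A1 at 3.3 ± 0.506 CPM there and 0.187 ± 0.115 CPM at the periphery (4.25).

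The 2 animals differed in some chains. In retina both eyes of RM03 were above both eyes of RM04 at each of the 4 locations for ITGA1, ITGA10, ITGB1 and ITGB5 (4 of 37 genes, 8.81% of all genes), and both eyes of RM04 were above RM03 for 8 genes (8.81% of all genes), ITGA2, ITGA7, ITGA9, ITGAX, LAMA1, LAMB1, LAMB3 and LAMC3. ITGA1 was at 1.65 to 4.58 CPM in the retina libraries of RM03 and at 0.746 to 1.37 CPM in those of RM04. In RPE/choroid RM03 was above RM04 for ITGA9 and ITGB1 (7.51% of all genes), and RM04 was above RM03 for ITGB2 and ITGB7 (7.42% of all genes). ITGB1 was higher in RM03 in both tissues, and ITGA9 was higher in RM04 in retina and in RM03 in RPE/choroid. With 1 animal on each side, no test was made.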

How the data were processed

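Per the labels and the study's methods, the authors made poly-A libraries from total RNA, quantified reads with Salmon 0.13 against Mmul_8.0.1 and summed transcripts to genes with tximport. The deposited values are estimated counts (length-scaled TPM) per gene and sequencing lane; they were rounded after summing 136 lanes into 32 libraries (2 lanes for periphery, 5 for others), and 10 repeated identifiers were dropped, leaving 19422 genes. Of the 37 members' identifiers, 34 were in the name table, all with the same symbol. Library totals ran from 42448891 to 78574034, and levels are TMM-normalized CPM.

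edgeR 4.0.16 (R 4.3.3, limma 3.58.1) fitted quasi-likelihood models with the monkey as covariate to genes that passed filterByExpr at a minimum count of 10, and p-values were adjusted over all genes tested. The fits held 16382 genes for the tissues, 15380 for retina and 15674 for RPE/choroid, and the comparisons with nasal had fits of their own. Standard errors were the fold change over the square root of F. Tables were handled with Python 3.11.15, numpy 2.4.6, pandas 2.3.3 and matplotlib 3.10.9. Alternatives were DESeq2 1.42.0, other scaling, filters, covariates and samples, thinning to equal depth and each eye left out; those without the pair of libraries rich in nerve markers, and the log2 rule of 2, were chosen after seeing the data.

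Described in full were, per comparison and direction, up to 5 called genes with the largest change and a mean of at least 5 CPM in the higher group, plus ITGB1, ITGAV and LAMC1; others are named by role. The members and lists were chosen with earlier results of these data known. Where a list symbol had several entries, that with the highest mean was used; TNS1, TGFB1 and RDH5 were not analysed here. The values of 1 member are not reported here; it stays in the counts.

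Replicate numbers mark the same eye of the same animal. Deviations from group means correlated at 0.6 on average between samples of an eye in retina (lowest 0.08) and 0.45 in RPE/choroid (lowest 0.1), and at 0.6 and 0.48 between fellow eyes. On simulated data, changes of 1.5 on the log2 scale were recovered for 92%, 90% and 79.5% of genes in the tissue, retina and RPE/choroid fits, and 5.64%, 3.23% and 5.92% of the genes called were ones not changed. The simulated counts held no difference between animals or eyes, and only 200 genes were changed in each fit. The real data differ in both respects, so these rates check the procedure and may not hold for the real data.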

Additional observations from a re-analysis of the deposited data

Results flagged for a closer look

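In 11 of 176 groups of 4 eyes (22 genes in 8 groups each), 1 eye lay far from the other 3 by Dixon's test, where chance alone gives about 1 in 20, or 8.8. ITGA11 in RPE/choroid was at 2.14 CPM in the perimacula of RM04 OD, below 4.68 to 5.42 CPM in the others, and at 2.05 CPM in the periphery of RM03 OD, above 0.582 to 0.684 CPM. ITGA2B was at 3.12 CPM in the RPE/choroid fovea of RM04 OS, above 1.26 to 1.43 CPM. ITGB1 was at 506 CPM in the RPE/choroid periphery of RM03 OS, the library with the highest Schwann cell sum, above 347 to 362 CPM.

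In retina, ITGAM was at 4.97 CPM in the fovea of RM04 OS, above 1.84 to 2.05 CPM, and at 5.22 CPM at the nasal location of RM03 OS, above 2.85 to 3.07 CPM. The same nasal library held 5.47 CPM of ITGA5, above 4.01 to 4.21 CPM. LAMA1 was low in RM03 OD, at 16.4 CPM in the perimacula (17.4 in each other eye) and 17.6 CPM at nasal (21.3 to 21.6). LAMA3 was at 13.3 CPM in the periphery of RM03 OD, below 15.3 to 15.5 CPM, and LAMA4 at 38.4 CPM in the fovea of RM04 OD, below 49.3 to 50.4 CPM.

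The change from fovea to periphery differed between the tissues for 22 genes by the interaction term, of which 21 are given. Given as the log2 change in retina less that in RPE/choroid, it was positive for LAMA4 (3.22), ITGA2B (1.02) and LAMB4 (0.51). It was negative for the integrin chains ITGB8 (-3.37), ITGA11 (-2.97), ITGB3 (-2.42), ITGAV (-2.11), ITGA10 (-1.92), ITGA1 (-1.88), ITGA8 (-1.84), ITGA6 (-1.42), ITGA7 (-1.33), ITGB5 (-1.17), ITGA5 (-1.15), ITGA3 (-0.97) and ITGAE (-0.84). It was also negative for the laminin chains LAMA2 (-1.28), LAMB2 (-1.25), LAMA3 (-1.06), LAMA1 (-0.91) and LAMA5 (-0.80). Adjusted p ran from 3.78e-09 for LAMA4 to 0.0334 for LAMB4.

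Leaving out 1 eye ended some of these calls. ITGA2B was not called without RM03 OD, RM03 OS or RM04 OD (0.96, 0.99 and 0.72), and LAMB4 not without RM03 OD, RM04 OD or RM04 OS (0.51, 0.49 and 0.57). Without the latter 3 eyes, ITGA8 (-2.20, -1.23 and -1.45), LAMA1 (-0.91, -0.77 and -0.70) and LAMA3 (-1.09, -0.81 and -0.89) were not called either.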

How the results depend on the processing

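No tallied value changed sign: of 1058 values of 79 named results under alternatives, 997 kept their side of the threshold and 61, from 22 results, lost their call. The tally holds only calls of the genes described in full. It covers the tissues, retina fovea against periphery and nasal, RPE/choroid fovea against periphery, and the interaction. Lost calls against perimacula, or of other genes such as LAMA2, ITGA7, ITGAL and ITGB4, are not in it. In RPE/choroid, 0 genes were called against nasal, but DESeq2 called 2 (ITGA3 and LAMB4), and 1 (LAMA2) was called without the pair of libraries rich in nerve markers and with only the compared locations in the fit. Against perimacula 0 were called, but 2 (ITGA1 and LAMC3) by DESeq2 and 3 (ITGA1, ITGA8 and LAMC3) with only the compared locations. Over all genes, DESeq2 called 475 against nasal and 314 against perimacula. Only the compared locations gave 346 and 357 over all genes, and leaving out the nerve-rich pair gave 89 against nasal. The cause of these differences between settings was not tested. Leaving out each eye in turn gave 32 to 33 called genes for the tissues (33 with all eyes), 24 to 26 at each location (25), 19 to 23 for retina fovea against periphery (23), 17 to 20 against nasal (21), 10 to 14 against perimacula (15), 15 to 20 for RPE/choroid fovea against periphery (20), 0 to 0 against nasal and perimacula, and 16 to 20 for the interaction (22). Over all genes, the calls for fovea against periphery fell too, from 10312 to 9076 to 9731 in retina and from 6911 to 4723 to 6023 in RPE/choroid.

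With the eye as a replicate block, the counts of the 37 genes in the same order of comparisons were 33, 25, 22, 21, 14, 19, 0, 0 and 22. The block ended the calls of LAMB4 (adjusted p = 0.0509) in retina against perimacula, and LAMA4 (0.06) and LAMC1 (0.0506) in RPE/choroid, added ITGB8 (0.032), and changed no other call of the genes reported here. Without the monkey as covariate, the counts were 33, 25, 18, 15, 10, 15, 0, 0 and 20. Calls over all genes fell as well without it. In retina they went from 10312 to 9043 against periphery, from 8091 to 6344 against nasal and from 5416 to 3651 against perimacula. In RPE/choroid they went from 6911 to 5303 against periphery. ITGB6, at up to 0.407 CPM, did not pass the filter on low counts within RPE/choroid.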
